A study of Mus musculus with 12 samples.

Results

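The 53 genes described here encode neuropeptides, the granin proteins that are stored with them, and the receptors that neuropeptides act on. They were taken by name from the 55471 mouse genes of the count table, and every one of the 53 was in it. They comprise 18 peptide ligands, 6 granins, 28 receptors and the binding protein Crhbp. RNA-seq measured them in primary hippocampal cultures, labelled as neurons, from wild-type CD1 mouse embryos of embryonic day 17 and mixed-sex litters. At day in vitro (DIV) 7 all cultures received an antisense gapmer in lipid nanoparticles, an oligonucleotide that directs RNase H to cut the RNA it pairs with. In 6 libraries (*Neuid* KD) the gapmer targeted the long noncoding RNA *Neuid*, in the other 6 (control) it was a negative control gapmer, and RNA was collected at DIV 10. The comparison asks how the peptide signaling genes of these cultures differed once *Neuid* was lowered. One gapmer was used against *Neuid*, and no untreated cultures were analysed here. Whether the 6 libraries of a group came from separate cultures is not given, so the p-values measure the spread between these libraries, which may be technical.

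Neuropeptides are made as large precursors, sorted with granins into dense-core vesicles, cut by prohormone convertases and carboxypeptidase E, and released when a neuron is strongly active. Most act over distance on G protein-coupled receptors, which raise or lower cyclic AMP or calcium in the receiving cell. In the hippocampus, inhibitory interneurons are the classic source of somatostatin, neuropeptide Y, cholecystokinin and VIP, while principal neurons and glia carry many of the receptors.

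Library depth ran from 18002585 to 30914714 counted reads in controls and from 11152556 to 30573480 under *Neuid* KD. *Neuid* (Gm10419, ENSMUSG00000072769, plus strand of chromosome 5 from 108367769 to 108378239 on GRCm38) had a mean of 28.4 ± 2.03 CPM (read counts scaled by normalized library size; SD, n = 6) in controls and 8.05 ± 1.13 CPM under *Neuid* KD, a log2 fold change of -1.81, and all *Neuid* KD libraries were below all controls (p = 0.00216 in a two-sided exact test over 924 arrangements, which allow no smaller p). Libraries carried different amounts of background reads, measured, with the counts known, as reads on 1503 chemosensory receptor genes, at 24.8 to 629 CPM in controls and 25.5 to 583 CPM under *Neuid* KD. At least 100 CPM was found in 4 control and 3 *Neuid* KD libraries, and less in 2 and 3, so fold changes are also given within these sets. Markers of neurons in general summed to 6740 to 7944 CPM in controls and 6636 to 8054 CPM under *Neuid* KD, with 1 of 12 higher and 1 lower. Of the 12 astrocyte markers, 11 passed the filter on low counts, and all 11 were higher in *Neuid* KD, with no overlap between groups. Their sum was 1887 to 2398 CPM in controls and 4399 to 4915 CPM under *Neuid* KD. Of the 6 markers of oligodendrocyte precursors, 2 were higher, Olig1 and Olig2, and the others were not called. This list summed to 96.3 to 115 CPM in controls and 247 to 292 CPM under *Neuid* KD. Most of that sum was Olig1 (means 78.2 and 216 CPM), so it says little about the other markers of the list. No cell type marker was at 0 in all 12 libraries. Microglia, endothelial, and fibroblast and mural lists had no called marker in edgeR or DESeq2, also at an unadjusted p under 0.05 in edgeR. Of their markers 4 of 8, 6 of 8 and 9 of 9 passed the filter. Microglia markers summed to 6.60 to 13.6 CPM in controls and endothelial markers to 6.89 to 23.5 CPM. At such low levels the lack of calls says little about these cells. In bulk RNA, fewer cells of a type and less RNA per cell cannot be told apart.

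The filter on low counts kept 48 members. Below, a member is called when its adjusted p (edgeR's quasi-likelihood test, Benjamini-Hochberg over all 19578 tested genes) is under 0.05. By that rule 12 members were called, 3 higher in *Neuid* KD (Cck, Scg3 and Adcyap1r1) and 9 lower (Adcyap1, Scg2, Gipr, Npy2r, Sstr4, Cckbr, Tacr3, Ntsr1 and Hcrtr2). Among all tested genes 6.31% were called higher and 2.42% lower. With an absolute log2 fold change above 0.5 as well, 7 members remained, beside 2.44% of all tested genes called higher and 0.792% lower. In either direction 12 of 48 tested members were called, beside 8.72% of all tested genes. In 9 of the 12 the groups did not overlap, 3 higher and 6 lower, beside 4.13% of all tested genes separated upward, 1.57% downward and 5.70% in either direction. The median log2 fold change of all tested genes was -0.03, with 8698 positive and 10880 negative. At an unadjusted p under 0.05 there were 3687 of the 19578, of which 2325 were higher and 1362 lower. With upper-quartile scaling the all-gene calls moved from 1235 higher and 473 lower to 1049 higher and 1259 lower, while all 12 members stayed called in their direction. A gene list for neuropeptide signaling that was drawn from genes lowered in these same libraries holds 12 of the members, of which 7 were called. For those 12, including the uncalled Penk, Pnoc, Npy1r, Sstr1 and Gpr139, the lower level is therefore not independent evidence. The counts, medians and sums of the members and their classes include these 12 genes.

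**Figure D1:**
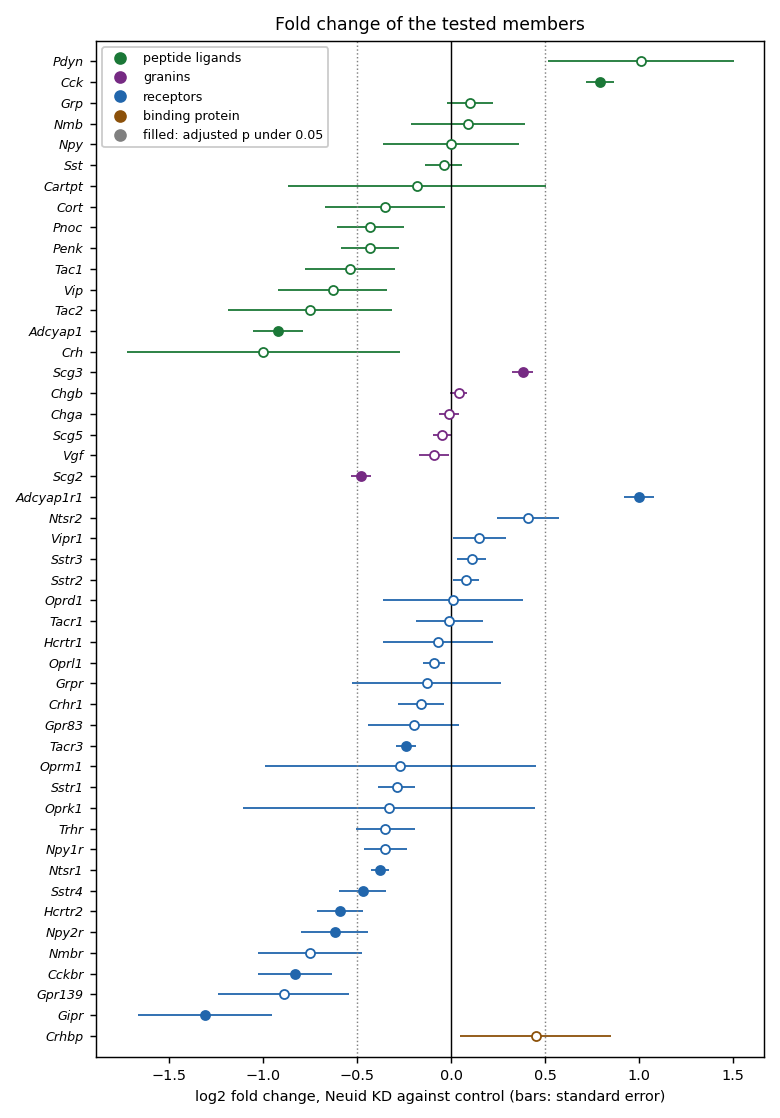
Log2 fold change in *Neuid* KD against control (x axis) of the 48 tested members (y axis), grouped by class and ordered by size, with bars for the standard error and dotted lines at 0.5 and -0.5. Filled points mark the 12 members with an adjusted p under 0.05, of which 3 lie to the right of 0 and 9 to the left.

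In levels per length of exon (CPM per kb), the 6 granins led all members in controls, while under *Neuid* KD Cck, at 48.3 CPM per kb, stood above Chga (40.1) and Vgf (35.3). In control libraries Scg5 was at 144, Scg2 at 110, Chgb at 80.8, Scg3 at 78.4, Chga at 40.4 and Vgf at 37.7 CPM per kb. The ligands Cck (27.8 CPM per kb) and Sst (17.7 CPM per kb) followed. The highest receptors were Sstr2 at 10.8, Ntsr1 at 10.1 and Adcyap1r1 at 9.87 CPM per kb, and under *Neuid* KD Adcyap1r1, at 19.8 CPM per kb, stood above every other receptor. In all 12 libraries 46 members were above the density of reads on chemosensory genes. The other 7 (Crh, Nts, Gal, Npy5r, Oprk1, Oprm1 and Galr1) were at or under it in at least 1 library, so their values carry little information about expression.

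**Figure D2:**
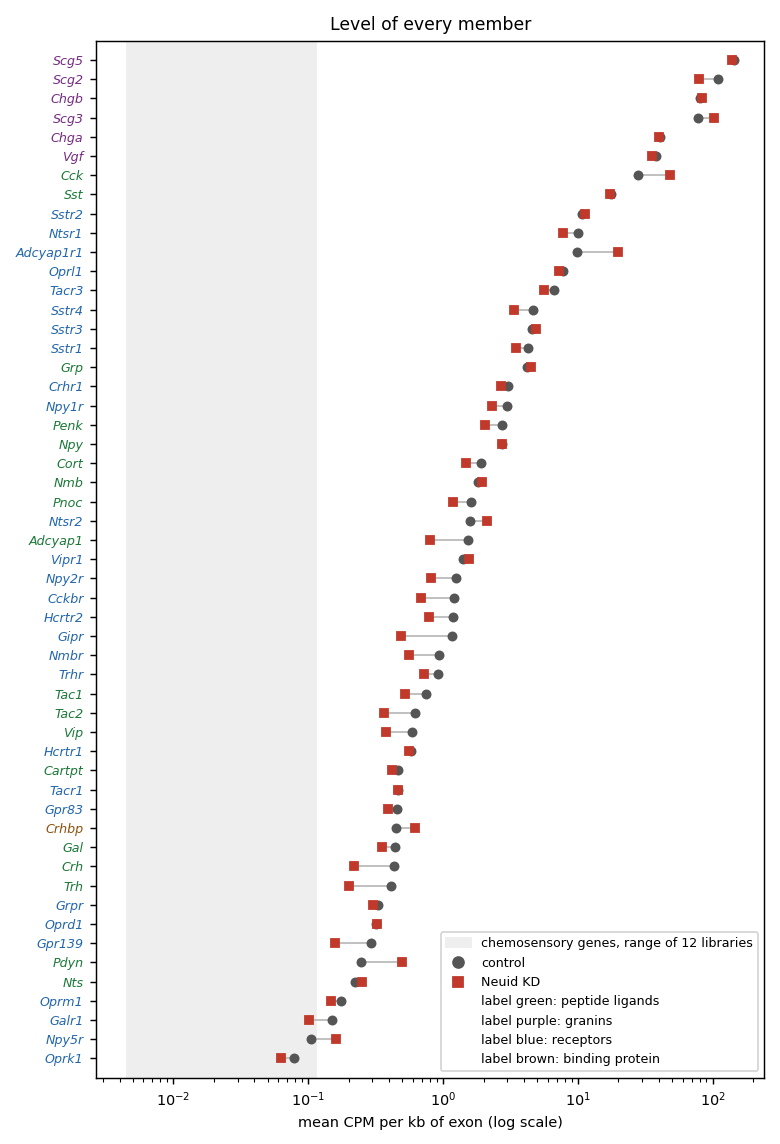
Mean level of each of the 53 members (y axis) in CPM per kb of exon (x axis, log scale) in control (circles) and *Neuid* KD libraries (squares), with the range of the chemosensory background density over the 12 libraries in grey. Granins take the 6 highest places in controls, Cck passes Chga and Vgf under *Neuid* KD, and Oprk1, Npy5r and Galr1 reach into the grey band.

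Among the peptide ligands, Cck rose and Adcyap1 fell, and the other tested precursors were not called. Cck encodes cholecystokinin, an abundant cortical and hippocampal peptide that marks a class of basket interneurons and is also made by pyramidal cells. Its level was 29.0, 36.3 and 42.4 CPM (lowest, median and highest) in control and 59.0, 61.5 and 69.6 CPM under *Neuid* KD. The lowest *Neuid* KD library was above the highest control. The log2 fold change was 0.79 with a standard error of 0.0750 and an adjusted p of 9.8e-07. Cck lies on chromosome 9 of GRCm38 from 121489824 to 121495694, on the minus strand. Adcyap1 (chromosome 17, 93199017 to 93206537, plus strand) encodes PACAP, a peptide that raises cyclic AMP and is made by many excitatory neurons. It was at 4.53, 5.98 and 6.71 CPM in controls and at 2.53, 3.00 and 3.71 CPM under *Neuid* KD. Again the groups did not overlap, with all *Neuid* KD libraries below the controls. Adcyap1 had a log2 fold change of -0.92, with a standard error of 0.134 and an adjusted p of 1.3e-04, which left 52.7% of the control level.

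Of the 15 tested ligands 4 had a positive and 11 a negative log2 fold change, with a median of -0.35. At an unadjusted p under 0.05 there were 6, of which 1 was higher and 5 were lower, beside 2325 higher and 1362 lower of all 19578 tested genes. The 13 ligands that were not called had log2 fold changes between -1.0 and 1.01 and adjusted p between 0.11 and 0.999. Sst, the somatostatin precursor of dendrite-targeting interneurons, was at 10.8 to 16.2 CPM in controls and at 11.7 to 13.5 CPM under *Neuid* KD (log2 fold change -0.04, standard error 0.098). Its related peptide Cort, cortistatin, was near 1 CPM in both groups. Npy, which marks further interneurons, had the same mean of 1.55 CPM in both groups (SD 0.896 and 0.478, n = 6 each). The *Neuid* KD libraries of Sst and Npy lay within the control range, while 3 of 6 of Cort were below every control. VIP, the peptide of interneurons that inhibit other interneurons, was at 2.00 ± 0.482 CPM in controls and 1.29 ± 0.469 CPM under *Neuid* KD (SD, n = 6 each), with an adjusted p of 0.244.

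The 3 opioid precursors were low. Penk, which gives the enkephalins, was at 4.49 ± 0.619 CPM in controls and 3.35 ± 0.640 CPM under *Neuid* KD (SD, n = 6 each, adjusted p = 0.11), and Pnoc, which gives nociceptin, at 3.46 ± 0.644 and 2.58 ± 0.493 CPM (adjusted p = 0.184). Pdyn, the dynorphin precursor of granule cells, had the highest fold change of any ligand (1.01) on levels of 0.200 to 1.49 and 0.608 to 1.97 CPM, with a standard error of 0.494 and an adjusted p of 0.284. None of the 3 was called, and each passed under 2 or 3 of the alternatives, Pdyn upward and the others downward. The gastrin-releasing peptide Grp was at 4.59 to 6.99 CPM in controls and at 5.70 to 8.25 CPM under *Neuid* KD. Tac1 (substance P), Tac2 (neurokinin B), Crh, Cartpt and Nmb were each under 3 CPM on average and were not called. Nts, Gal and Trh did not pass the filter, with 0 to 17, 0 to 16 and 2 to 26 reads per library.

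Ligands other than Cck were low, and the summed level of the 18 ligands followed Cck. The sum was 75.6 to 86.5 CPM in controls and 97.5 to 107 CPM under *Neuid* KD. Without Cck it was 40.3 to 49.9 CPM in controls and 35.4 to 41.5 CPM under *Neuid* KD, with overlap. The higher sum under *Neuid* KD was thus seen only with Cck included.

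Granins, the acidic proteins that help to form dense-core granules and are themselves cut into peptides, moved in both directions. Scg2, secretogranin II and the precursor of secretoneurin (chromosome 1, 79434669 to 79440120, minus strand), was at 255, 277 and 303 CPM in controls and at 188, 202 and 207 CPM under *Neuid* KD. The highest *Neuid* KD library was well below the lowest control library. The log2 fold change was -0.48 with a standard error of 0.052 and an adjusted p of 5.5e-06. Scg3, secretogranin III, which ties granin aggregates to the cholesterol-rich granule membrane (chromosome 9, 75643189 to 75684056, minus strand), was at 195, 219 and 230 CPM in controls and at 261, 282 and 296 CPM under *Neuid* KD. Here every *Neuid* KD library was above the controls. Scg3 had a log2 fold change of 0.38, with a standard error of 0.0553 and an adjusted p of 1.4e-04.

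The other 4 granins overlapped between the groups and were not called, although Scg5 was called lower in 3 of 13 alternatives. Chgb, chromogranin B, was at 210, 224 and 230 CPM in controls and at 211, 232 and 237 CPM under *Neuid* KD (log2 fold change 0.04, adjusted p = 0.745). Chga, chromogranin A, was at 98.5, 113 and 120 CPM in controls and at 102, 111 and 120 CPM under *Neuid* KD (-0.01, adjusted p = 0.953). The 2 ranges of Chga nearly coincided, while 4 of 6 *Neuid* KD libraries of Chgb were above every control. Scg5, the 7B2 chaperone of the convertase PC2, was at 209, 224 and 244 and at 208, 218 and 226 CPM (-0.05, adjusted p = 0.67), and Vgf, an activity-induced peptide precursor, at 97.6, 111 and 128 and at 90.5, 107 and 120 CPM (-0.09, adjusted p = 0.643). Standard errors of these 4 log2 fold changes were 0.0452 to 0.0791, smaller than the shifts of Scg2 and Scg3. The summed granin level overlapped, at 1082 to 1222 CPM in controls and 1068 to 1186 CPM under *Neuid* KD. With a log2 fold change past 0.5 no granin was called by edgeR or by DESeq2, and 2 had an unadjusted p under 0.05.

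**Figure D3:**
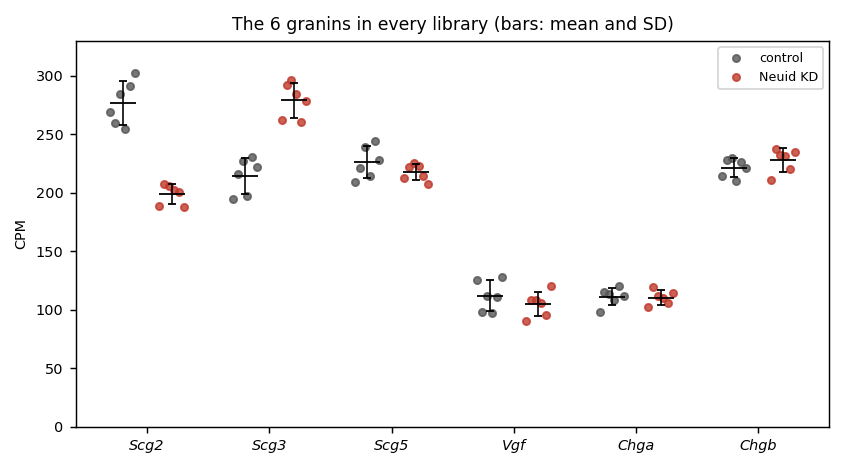
CPM of the 6 granins (y axis, from 0) in each of the 6 control (grey) and 6 *Neuid* KD libraries (red), with the mean and SD of each group in black. The groups separate downward for Scg2 and upward for Scg3 and overlap for Scg5, Vgf, Chga and Chgb.

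Promoter sequences are shown for both called granins, for the uncalled granin Chgb, and for the ligands Cck and Sst, since granin and somatostatin promoters are textbook carriers of the cyclic AMP response element, through which CREB acts. Windows of 300 bases, with 250 before and 50 after the annotated start, came from RefSeq on GRCm38.p6 for 42 of the 53 members. The element was searched as TGACGTCA, which reads the same on both strands, and capitals mark it in these lines, 5′ to 3′ on the gene's strand. The windows are chr1:79439977-79440276 (minus strand) for Scg2, chr2:132781392-132781691 (plus) for Chgb, chr9:75684007-75684306 (minus) for Scg3, chr9:121495645-121495944 (minus) for Cck and chr16:23890795-23891094 (minus) for Sst.
Scg2 promoter: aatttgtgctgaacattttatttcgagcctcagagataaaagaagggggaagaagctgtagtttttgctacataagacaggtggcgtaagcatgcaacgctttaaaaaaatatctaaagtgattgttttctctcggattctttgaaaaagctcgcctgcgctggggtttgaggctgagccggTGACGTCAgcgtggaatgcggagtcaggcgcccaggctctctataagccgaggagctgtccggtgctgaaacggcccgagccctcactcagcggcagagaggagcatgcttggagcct
Chgb promoter: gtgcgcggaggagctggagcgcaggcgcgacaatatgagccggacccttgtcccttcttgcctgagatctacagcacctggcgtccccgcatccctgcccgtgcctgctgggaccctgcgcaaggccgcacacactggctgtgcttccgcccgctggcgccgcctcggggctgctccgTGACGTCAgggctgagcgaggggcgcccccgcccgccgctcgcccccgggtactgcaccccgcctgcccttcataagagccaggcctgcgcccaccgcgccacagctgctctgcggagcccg
Scg3 promoter: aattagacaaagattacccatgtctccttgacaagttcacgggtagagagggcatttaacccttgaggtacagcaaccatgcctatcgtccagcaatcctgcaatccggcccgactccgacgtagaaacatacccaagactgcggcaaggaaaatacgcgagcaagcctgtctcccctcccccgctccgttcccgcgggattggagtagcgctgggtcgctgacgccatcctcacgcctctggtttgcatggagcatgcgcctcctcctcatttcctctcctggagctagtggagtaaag
Cck promoter: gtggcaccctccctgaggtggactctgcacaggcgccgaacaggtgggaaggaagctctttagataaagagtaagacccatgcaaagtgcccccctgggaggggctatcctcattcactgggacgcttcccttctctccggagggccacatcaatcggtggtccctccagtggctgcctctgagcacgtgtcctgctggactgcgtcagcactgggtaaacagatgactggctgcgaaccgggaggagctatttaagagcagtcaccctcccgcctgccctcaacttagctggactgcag
Sst promoter: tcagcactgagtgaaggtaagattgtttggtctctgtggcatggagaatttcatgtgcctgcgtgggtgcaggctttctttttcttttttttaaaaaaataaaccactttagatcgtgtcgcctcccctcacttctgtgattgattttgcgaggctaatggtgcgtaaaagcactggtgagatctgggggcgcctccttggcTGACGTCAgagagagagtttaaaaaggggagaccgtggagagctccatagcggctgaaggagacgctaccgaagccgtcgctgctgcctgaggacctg

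The element stood at bases -68 to -61 from the start in Scg2, at -72 to -65 in Chgb and at -48 to -41 in Sst. Scg2 and Chgb thus shared it at nearly the same place, while Scg2 fell and Chgb was not called. The windows of Scg3 and Cck, the granin and the ligand that rose, did not hold this full sequence. Shorter or variant forms of the element were not searched, so its absence from these windows is not shown. Sstr2 and Cartpt had it too, so that 5 of the 42 members with a window carried it, beside 549 of 27025 genes (2.03%). Counted by window this was 5 of the members' 51, beside 588 of all 32851 (1.79%). The match describes the letters of these windows and not binding.

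Among the receptors 1 rose and 7 fell. The receptor that rose was Adcyap1r1, which encodes PAC1, the main receptor for PACAP, present on neurons and on astrocytes. It was at 50.2, 66.3 and 74.2 CPM in controls and at 121, 132 and 137 CPM under *Neuid* KD. The lowest *Neuid* KD library was far above the highest control library. The log2 fold change was 1.00 with a standard error of 0.0785 and an adjusted p of 8.5e-08, and Adcyap1r1 lies on chromosome 6 from 55451978 to 55501451 on the plus strand. The astrocyte markers, whose sums are given above, moved in the same direction, and their part in this result was not tested. Vipr1, a related receptor that binds VIP and PACAP alike, was at 8.10 ± 2.07 and 8.98 ± 0.999 CPM (SD, n = 6 each, adjusted p = 0.697).

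Ligand and receptor moved apart in 2 systems. In the PACAP system Adcyap1 fell while Adcyap1r1 rose. In the cholecystokinin system Cck rose, while Cckbr, the CCK2 receptor that is the main brain receptor for the peptide (chromosome 7, 105425731 to 105470898, plus strand), fell. Cckbr was at 3.15, 3.24 and 4.08 CPM in controls and at 1.33, 2.06 and 2.53 CPM under *Neuid* KD, without overlap. Its log2 fold change was -0.83 with a standard error of 0.195 and an adjusted p of 0.0103.

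The receptor of highest level (CPM per kb) among those that fell was Ntsr1, a neurotensin receptor that couples to calcium release (chromosome 2, 180499976 to 180544980, plus strand). It was at 36.4, 39.6 and 41.4 CPM in controls and at 28.9, 30.0 and 32.3 CPM under *Neuid* KD. No libraries of the 2 groups overlapped. The log2 fold change was -0.38 with a standard error of 0.0482 and an adjusted p of 3.3e-05. Ntsr2, the other neurotensin receptor and one found on astrocytes, had a log2 fold change of 0.41 (standard error 0.164), with overlap and an adjusted p of 0.159. That value fell under 0.05 in 3 of 13 alternatives. The peptide itself, Nts, was too low to be tested.

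Tacr3, the neurokinin B receptor (chromosome 3, 134829007 to 134934579, plus strand), was at 23.8, 24.5 and 26.5 CPM in controls and at 19.8, 21.3 and 22.2 CPM under *Neuid* KD. The ranges were narrow and did not overlap, so that a log2 fold change of only -0.24 (standard error 0.0506) was called (adjusted p = 0.00478). Tacr1, the substance P receptor, stood at 3.01 ± 0.573 and 3.00 ± 0.528 CPM (SD, n = 6 each). Hcrtr2, an orexin receptor (chromosome 9, 76225880 to 76323856, minus strand), was at 5.70, 7.24 and 9.60 CPM in controls and at 4.06, 5.01 and 5.39 CPM under *Neuid* KD. These groups too were separate, at a log2 fold change of -0.59 with a standard error of 0.123 and an adjusted p of 0.00437. Hcrtr1, its relative, was at 1.52 ± 0.364 and 1.45 ± 0.492 CPM and was not called (adjusted p = 0.937).

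Gipr, Npy2r and Sstr4 fell with overlap between the groups. Gipr, the receptor of the gut hormone GIP (chromosome 7, 19156061 to 19166127, minus strand), was at 2.68, 3.80 and 5.47 CPM in controls and at 0.628, 1.28 and 3.87 CPM under *Neuid* KD. In 5 of the 6 *Neuid* KD libraries it was below every control library. Its log2 fold change of -1.31 with a standard error of 0.358 and an adjusted p of 0.0281 was the most negative of all tested members. Npy2r, a presynaptic receptor through which neuropeptide Y restrains release (chromosome 3, 82538383 to 82548084, minus strand), was at 2.53, 4.79 and 5.15 CPM in controls and at 2.31, 2.74 and 3.28 CPM under *Neuid* KD, where 1 of 6 was below all controls (log2 fold change -0.62, standard error 0.18, adjusted p = 0.0402). Sstr4, a somatostatin receptor of pyramidal cells (chromosome 2, 148395344 to 148396767, plus strand), was at 5.74, 6.52 and 7.67 CPM in controls and at 3.51, 4.68 and 6.12 CPM under *Neuid* KD (log2 fold change -0.47, standard error 0.124, adjusted p = 0.0213). Here 5 of 6 *Neuid* KD libraries were below all controls.

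These were also the calls that single libraries decided. The call of Gipr was lost without control library 1, 2 or 4 or without *Neuid* KD library 2, 3, 4 or 6 (adjusted p up to 0.0774). That of Npy2r was lost without control library 2, 4, 5 or 6 or without *Neuid* KD library 2, 3, 4 or 6 (up to 0.104), and that of Sstr4 without control library 3 or 5 or without *Neuid* KD library 2 or 3 (up to 0.0694). Without *Neuid* KD library 2 or 3 alone, 4 receptors in place of 7 were called lower, and without control library 1 there were 2 called higher. The other 9 called members stayed called whichever library was left out.

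**Figure D4:**
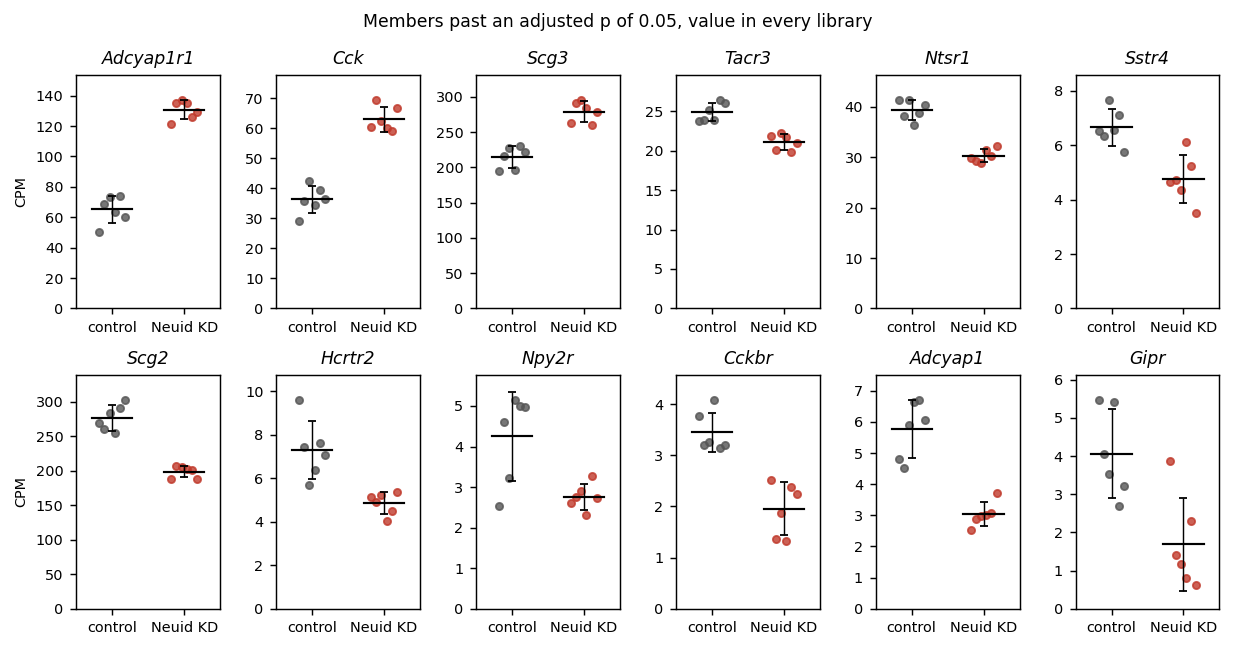
CPM (y axis, from 0) of the 12 called members in each control (grey) and *Neuid* KD library (red), with the mean and SD in black, ordered from the highest to the lowest log2 fold change. The groups share no range in 9 panels and overlap in Sstr4, Npy2r and Gipr.

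Of the 26 tested receptors 6 had a positive and 20 a negative log2 fold change, with a median of -0.25. Medians as low were found for the microglia (-0.31), endothelial (-0.26), and fibroblast and mural (-0.46) lists. Those of the inhibitory, excitatory, Cajal-Retzius and general neuron lists were -0.08, 0.05, -0.22 and 0.05. Astrocyte and oligodendrocyte precursor lists were at 1.31 and 0.30. An unadjusted p under 0.05 was found for 14, of which 2 were higher and 12 lower, beside 2325 higher and 1362 lower of all 19578 tested genes. These counts include receptors from the list drawn from genes lowered in these same libraries. With a log2 fold change past 0.5 as well, 1 was called higher and 4 lower. The 18 uncalled receptors had log2 fold changes between -0.89 (Gpr139) and 0.41 (Ntsr2). The sign of Oprd1 turned under other scalings. Npy1r, the postsynaptic neuropeptide Y receptor, was at 7.47 to 13.2 CPM in controls and at 7.29 to 8.94 CPM under *Neuid* KD, with an adjusted p of 0.0729 that fell under 0.05 in 7 of 13 alternatives.

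Of the 4 somatostatin receptors only Sstr4 was called. Sstr2 and Sstr3, the latter a receptor of neuronal cilia, were at 19.8 to 26.4 and 16.4 to 22.8 CPM in controls and at 22.2 to 26.6 and 18.5 to 23.3 CPM under *Neuid* KD, with log2 fold changes of 0.08 and 0.11. The log2 fold change of Sstr1 was -0.29, not called (adjusted p = 0.10), although it was called with upper-quartile scaling and with DESeq2. Whether the members of the family differ from each other in their response was not tested. Of the opioid receptors, Oprl1, which binds nociceptin, was at 28.9 ± 1.83 CPM in controls and 27.2 ± 1.81 CPM under *Neuid* KD (SD, n = 6 each). Oprm1, Oprd1 and Oprk1, the mu, delta and kappa receptors, averaged under 1.5 CPM each, and their log2 fold changes had standard errors of 0.719, 0.373 and 0.778. Oprm1 was at 1.19 to 2.78 CPM in the 7 libraries with at least 100 CPM of background reads and at 0 to 0.776 CPM in the 5 with less, and Oprk1 at 0.316 to 1.53 and 0.0699 to 0.200 CPM, so that both were higher where background was higher, and its part in their values was not tested. Crhr1, the receptor of corticotropin-releasing hormone, was at 7.48 ± 1.25 and 6.67 ± 1.07 CPM (SD, n = 6 each). Crhbp, which binds that hormone, was near 1 CPM and was not called (log2 fold change 0.45, standard error 0.401). Among receptors of smaller peptide families, Nmbr, for neuromedin B, was at 3.01 ± 1.01 and 1.80 ± 0.595 CPM, and Trhr, for thyrotropin-releasing hormone, at 3.68 ± 0.661 and 2.90 ± 0.389 CPM (SD, n = 6 each, adjusted p = 0.117 and 0.243). The adjusted p of Nmbr fell under 0.05 in 4 of 13 alternatives, among them DESeq2, and that of Trhr in none. Grpr, Gpr139 and Gpr83 averaged under 2.5 CPM, and none of these receptors was called. Gpr139 was below every control in 5 of 6 *Neuid* KD libraries, and its adjusted p fell under 0.05 in 4 of 12 alternatives. Npy5r and Galr1 did not pass the filter, with 0 to 14 and 0 to 22 reads per library.

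The sum of the 28 receptors was 280 to 296 CPM in controls and 319 to 330 CPM under *Neuid* KD. Without Adcyap1r1 the sum of the other 27 was 213 to 230 CPM in controls and 184 to 201 CPM under *Neuid* KD. Both sums were free of overlap, in opposite directions, and neither was given a test.

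All 12 called members had the same sign in the libraries with at least 100 CPM of background reads and in those with less. For Adcyap1r1 the log2 fold changes were 1.05 and 0.85, for Cck 0.87 and 0.61, for Scg3 0.37 and 0.32, for Scg2 -0.49 and -0.52, and for Adcyap1 -0.80 and -1.12. Among the receptors that fell they were -1.04 and -1.51 for Gipr, -0.57 and -1.12 for Cckbr, -0.60 and -0.52 for Hcrtr2, -0.57 and -0.65 for Npy2r, -0.48 and -0.57 for Sstr4, -0.33 and -0.46 for Ntsr1, and -0.22 and -0.30 for Tacr3. In the first set the calls of Cckbr (adjusted p = 0.42), Npy2r (0.357), Sstr4 (0.217) and Tacr3 (0.382) were lost, and in the second those of Npy2r (0.0914) and Hcrtr2 (0.0677). Offsets for GC content and length ended 7 calls (Scg2, Scg3, Hcrtr2, Npy2r, Ntsr1, Sstr4 and Tacr3). Those offsets also raised the dispersion of Scg2 from 0.004 to 0.0636, and none of the 12 calls was lost when they were fitted on genes of at least 10 CPM, an alternative chosen after seeing the data.

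**Figure D5:**
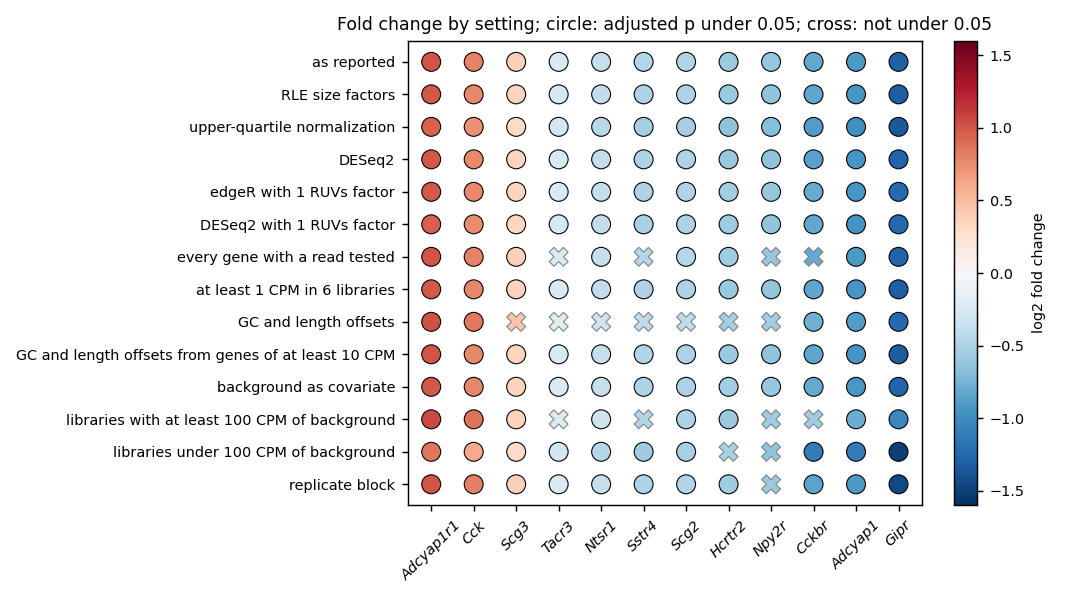
Log2 fold change (colour) of the 12 called members (x axis) as reported and under 13 alternatives (y axis), with circles where the adjusted p was under 0.05 and crosses where it was not. Adcyap1r1, Cck, Adcyap1 and Gipr are circles in every line, and no member changes colour from red to blue.

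The enzymes and chaperones that process peptide precursors were split like the granins. Of 12 such genes, all tested, 2 were called higher and 2 lower, beside 6.31% and 2.42% of all tested genes. None was called past a log2 fold change of 0.5 in edgeR or DESeq2, and 6 had an unadjusted p under 0.05 in edgeR. The 4 genes are named here after their values were seen. Pcsk1 and Pcsk2, the convertases PC1/3 and PC2 that cut precursors in the granule, fell. Pcsk1 was at 35.2, 37.4 and 41.0 CPM in controls and at 22.2, 27.8 and 30.2 CPM under *Neuid* KD (log2 fold change -0.46, adjusted p = 5.3e-05), and Pcsk2 at 124, 133 and 153 and at 98.4, 108 and 114 CPM (-0.33, adjusted p = 0.00129). Neither overlapped between groups. Cpe, the carboxypeptidase E that trims the cut peptides, rose from 1083, 1189 and 1275 CPM to 1477, 1515 and 1536 CPM (0.35, adjusted p = 5.4e-05), and Ctsl, cathepsin L, a lysosomal and granule protease, from 51.2, 58.9 and 62.5 CPM to 67.6, 72.1 and 74.1 CPM (0.33, adjusted p = 6.9e-04). These too were free of overlap. Cpe and Ctsl are also expressed by astrocytes, whose markers moved the same way, and the part of astrocytes in these values was not tested.

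The exons of 4 members overlap another gene. Penk, Oprm1 and Nmbr overlap a gene on the opposite strand (A830012C17Rik, Ipcef1 and B230364G03Rik) and Nmb one on its own strand (Sec11a). As the strand setting of the counting is not given in the sources used here, the values of these 4 genes are uncertain. None of them was called in the main test, while Penk and Nmbr had an adjusted p under 0.05 with DESeq2.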

How the data were processed

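RNA-seq libraries were made with the SMARTer Stranded Total RNA-seq Pico kit from 5 ng of RNA, with single reads of 50 bases. The authors aligned reads to mm10 with STAR, after bcl2fastq, and deposited raw counts per gene from featureCounts, without normalization. The annotation release and strand setting are not given in the sources used here. Symbols and positions came from GENCODE on GRCm38, for 55230 of 55471 genes. Groups came from the sample labels.

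The counts were normalized and tested with edgeR 4.0.16 on R 4.3.3 (TMM normalization, its default filter on low counts, quasi-likelihood test, group as the only term), and p-values were adjusted by Benjamini-Hochberg over 19578 genes. The steps were tested on simulated data. Depth was 11152556 to 30914714 reads per library, and genes of few reads have wide errors. Alternatives were other size factors, DESeq2 1.42.0, 1 factor of unwanted variation (RUVs, computed here), other filters, offsets for GC content and length, the background as a covariate, library subsets, a replicate block and each library left out. All 53 members were described by class. Values were printed for members with an adjusted p under 0.05 or at least 100 CPM in a group mean, and for others as context. Other lists were named only past 0.05 and a log2 fold change of 0.5, save where stated. The members and lists were chosen with earlier results of these data known.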

Additional observations from a re-analysis of the deposited data

Results flagged for a closer look

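Within groups of 6 libraries, the highest or lowest library stood apart by Dixon's criterion, which sets the gap to the nearest library against the range, in 4 of the 96 groups formed by 48 tested members, where chance gives about 1 in 20. Cartpt, a low peptide precursor, was at 1.65 CPM in control library 1 and at 0.185 to 0.510 CPM in the other controls. Grp was at 4.59 CPM in control library 4 and at 6.11 to 6.99 CPM in the others. Nmb was at 2.78 CPM in *Neuid* KD library 1 and at 1.09 to 1.61 CPM in the other *Neuid* KD libraries. Oprm1 was also at 2.78 CPM in *Neuid* KD library 1, and at 0.560 to 1.2 CPM in the others. None of these 4 genes was called. Control library 1 and *Neuid* KD library 1 had the most background reads of their groups, at 629 and 583 CPM on chemosensory receptor genes, and the part of background in these values was not tested.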

How the results depend on the processing

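The 12 called members kept their direction in all alternatives. All 12 were also called with RLE or upper-quartile scaling, DESeq2, 1 RUVs factor in edgeR or DESeq2, a filter of 1 CPM in 6 libraries, the background covariate and the offsets from genes of at least 10 CPM. The GC and length offsets kept 5 of 12, testing every gene with a read kept 8, libraries with at least 100 CPM of background kept 8 and those under it 10, and the cause was not tested. Ligands called higher (1) became 2 with edgeR and 1 RUVs factor, DESeq2 and 1 RUVs factor, and the background covariate. Ligands called lower (1) became 2 with DESeq2, 3 with DESeq2 and 1 RUVs factor, and 2 in libraries under 100 CPM of background. Granins called lower (1) became 2, with Scg5 added, with upper-quartile scaling, DESeq2 with 1 RUVs factor and libraries under 100 CPM. Granins of both directions became 0 with the GC and length offsets and with a log2 fold change past 0.5. Receptors called higher (1) became 2 with edgeR and 1 RUVs factor and the background covariate. Receptors called lower (7) became 10 with DESeq2 and 11 with DESeq2 and 1 RUVs factor. Npy1r, Nmbr and Gpr139 were also called lower with edgeR and 1 RUVs factor and with the background covariate, where all 7 stayed called. The count became 3 with every gene tested, 2 with the GC and length offsets, 3 in libraries with at least 100 CPM and 4 past 0.5. All genes called higher (1235) became 711 with every gene tested, 402 with the GC and length offsets, 651 in libraries with at least 100 CPM and 477 past 0.5. All genes called lower (473) became 1259 with upper-quartile scaling, 1004 with DESeq2, 983 with edgeR and 1396 with DESeq2 and 1 RUVs factor, 229 with every gene tested, 802 with 1 CPM in 6 libraries, 98 with the GC and length offsets, 989 with the background covariate, 205 in libraries with at least 100 CPM, 799 in those under it and 155 past 0.5. With each library left out, ligands and granins stayed at 1 in each direction, receptors ran from 1 to 2 higher and 4 to 8 lower, all genes from 822 (without *Neuid* KD library 2) to 1208 higher and from 355 to 780 (without *Neuid* KD library 1) lower, and *Neuid* from -1.88 to -1.75 (log2).

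Same-numbered libraries of the groups deviated together for numbers 1 and 3 (correlations of 0.774 and 0.751) but not for numbers 2, 4, 5 and 6 (-0.454, -0.637, -0.552 and 0.004). Only control libraries 1 and 3 and *Neuid* KD library 3 correlated best with the library of their own number. The numbers were therefore not taken as pairs. With the replicate block 1299 genes were called higher and 542 lower, 2 receptors higher and 7 lower, 1 ligand and 1 granin in each direction, and *Neuid* was at -1.82 (log2); of the 12 called members, Npy2r was not called.

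Some uncalled members changed sign, with the log2 fold changes below. In the main test Oprk1 was at -0.33, Oprm1 at -0.27 and Cartpt at -0.18, and the others lay between -0.13 and 0.10. In libraries under 100 CPM of background, Npy was at 0.39, Sst at 0.19, Nmb at -0.13, Sstr2 at -0.02, Oprm1 at 2.29, Tacr1 at 0.22 and Hcrtr1 at 0.14. In those of at least 100 CPM, Cartpt was at 0.20, Grp at -0.05, Oprk1 at 0.10 and Grpr at 0.09. With edgeR and 1 RUVs factor, Npy was at 0.08, Cartpt at 0.01, Oprk1 at 0.06, Oprm1 at 0.38 and Tacr1 at 0.04, and with DESeq2 and 1 RUVs factor Npy at 0.06, Oprm1 at 0.39 and Tacr1 at 0.02. With every gene tested Npy and Tacr1 were at 0.01. With the GC and length offsets Npy was at 0.09, Sst at 0.05, Scg5 at 0.00, Chga at 0.06 and Tacr1 at 0.06. With the background covariate Npy was at 0.05, Oprm1 at 0.28 and Tacr1 at 0.03, and with the block Npy at 0.12 and Oprm1 at 0.19. With upper-quartile scaling Chgb was at -0.02 and Oprd1 at -0.06, and Oprd1 was at -0.01 with RLE and with 1 CPM in 6 libraries. With single libraries left out, signs also differed for Cartpt (-0.60 to 0.44), Chga (-0.05 to 0.01), Hcrtr1 (-0.27 to 0.03), Nmb (-0.18 to 0.21), Npy (-0.20 to 0.31), Oprd1 (-0.17 to 0.32), Oprk1 (-0.69 to 0.05), Oprm1 (-0.75 to 0.01), Sst (-0.08 to 0.04) and Tacr1 (-0.09 to 0.06). The widest standard errors among members were 0.778 for Oprk1, 0.726 for Crh and 0.719 for Oprm1, and the cause was not tested.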

Other observations

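Peptide receptors and peptides outside the 53 genes were also counted. Of 55 further peptide receptors 34 were tested, of which 2 were called higher and 1 lower, with a median log2 fold change of -0.25. These counts were near the shares of all tested genes, of which 6.31% were called higher and 2.42% lower. Ednrb, the endothelin B receptor that astrocytes carry, rose from 25.1, 33.4 and 37.0 CPM (lowest, median and highest) in control to 92.4, 98.4 and 103 CPM in *Neuid* KD libraries, with no overlap (log2 fold change 1.58, standard error 0.0826, adjusted p = 4.5e-10). Like Adcyap1r1 it rose beside the astrocyte markers, whose part was not tested. Bdkrb2, the bradykinin B2 receptor, fell from 2.87, 4.04 and 4.73 CPM to 0.890, 1.58 and 3.45 CPM, with overlap (log2 fold change -1.22, standard error 0.257, adjusted p = 0.00454). The third called gene was Prokr1, named after its values were seen, with a log2 fold change of 0.39 (adjusted p = 0.00589). Of 45 further peptides 11 were tested, and none was called by edgeR, where 3 had an unadjusted p under 0.05 (1 higher and 2 lower), while DESeq2 called 1 higher and 2 lower.

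Of 15 enzymes that degrade peptides, all tested, 2 were called higher and 1 lower, beside 6.31% and 2.42% of all tested genes. The one that fell was Ecel1, a membrane metallopeptidase of neurons, at 3.30, 4.12 and 5.27 CPM in control and 2.02, 2.86 and 3.70 CPM in *Neuid* KD libraries, with overlap (log2 fold change -0.58, standard error 0.162, adjusted p = 0.0313, and up to 0.101 with a library left out). Of 16 activity-regulated genes 3 were called higher and none lower by edgeR, while 4 were lower at an unadjusted p under 0.05 and DESeq2 called 3 higher and 3 lower. Their sum was 1020 to 1166 CPM in control and 884 to 1189 CPM in *Neuid* KD libraries. Most of that sum was Nr4a3, named after its values were seen, with means of 790 and 763 CPM (adjusted p = 0.841, edgeR). The sum therefore says little about the other genes of the list. Of 14 tested markers of inhibitory neurons 1 was called higher, and of 12 markers of excitatory neurons 1 was called higher and 1 lower. DESeq2 called 1 higher and 1 lower in the inhibitory list and 3 higher and 1 lower in the excitatory list. None of the 6 Cajal-Retzius markers was called by edgeR, with 1 lower at an unadjusted p under 0.05, and DESeq2 called 1 lower.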
